A study of Homo sapiens with 19 samples.

Results

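The genes described here are the collagen chain genes, chosen by their symbol on the array platform (COL, a number, A, a number, with COL17A1 left out) among probe sets that name a single gene. This gave 43 genes, read by 112 probe sets, of 19775 genes with such a probe set. Where a gene had several, the probe set of highest average signal stood for it, leaving aside probe sets of shared probes where another existed. RNA came from SKBR3, an established human breast carcinoma line in which ERBB2 is amplified, and was hybridized to 19 Affymetrix arrays. The 5 groups were untreated cells (3 arrays), and CD44-/lo and CD44hi cells sorted after 60 nM epirubicin over 3 days or after 1% oxygen over 7 days (4 arrays per treatment and fraction). Epirubicin, an anthracycline, blocks topoisomerase II after it has cut DNA, and CD44 is a surface receptor for hyaluronan. The CD44-/lo fraction is called CD44lo below. No sort is named for the untreated cells, so in a comparison with them the treatment and the sorting cannot be told apart, and the 4 such comparisons share the same untreated arrays. All groups are of 1 cell line. In bulk RNA of sorted cells, a change in the share of cells that hold a transcript and a change in its amount per cell cannot be told apart.

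Collagens are triple helices of 3 alpha chains. Each kind of chain has its own gene, so collagen types built of different chains need matched chains. Fibrillar collagens (types I, II, III, V, XI and relatives) build the fibrils of connective tissue, and type V chains join and limit the width of type I fibrils. Type IV chains form the sheet-like network of basement membranes and are encoded by gene pairs that lie head to head. Fibril-associated collagens sit on fibril surfaces, multiplexins and transmembrane collagens lie at basement membranes and cell surfaces, and fibroblasts, not carcinoma cells, are the main source of fibrillar collagen in breast tumours.

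Shown first are the stretches shared by the 2 head-to-head type IV pairs with a tested chain on both sides, and the start region of COL5A1, the chain with the smallest adjusted p under low oxygen; the choice was made after their values were seen. They are given as RefSeq sequence of build GRCh38.p14, plus strand, read 5′ to 3′. COL4A4 (chr2:226967360-227164488) and COL4A3 (chr2:227164624-227314792) are transcribed away from each other, and the bases between their gene models are chr2:227164489-227164623. COL4A1 (chr13:110148963-110307157) and COL4A2 (chr13:110307284-110513209) have the same layout around chr13:110307158-110307283. COL5A1 (chr9:134641803-134844843) is shown with the 250 bases before its start, chr9:134641553-134641802. Capitals mark the core letters of the hypoxia response element, ACGTG or GCGTG, and the GC box, GGGCGG, on either strand.
COL4A4-COL4A3 interval: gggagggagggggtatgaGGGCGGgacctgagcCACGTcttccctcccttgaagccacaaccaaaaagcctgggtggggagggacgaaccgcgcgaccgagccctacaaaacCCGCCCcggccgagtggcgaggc
COL4A1-COL4A2 interval: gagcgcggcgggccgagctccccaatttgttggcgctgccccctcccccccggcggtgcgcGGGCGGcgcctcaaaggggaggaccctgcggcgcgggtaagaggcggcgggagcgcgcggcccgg
COL5A1 upstream: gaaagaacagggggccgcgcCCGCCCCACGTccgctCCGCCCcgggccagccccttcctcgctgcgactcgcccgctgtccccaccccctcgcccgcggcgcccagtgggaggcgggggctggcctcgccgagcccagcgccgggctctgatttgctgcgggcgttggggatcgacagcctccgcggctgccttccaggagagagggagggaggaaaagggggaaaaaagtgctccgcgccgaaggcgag
The interval of 135 bases between COL4A4 and COL4A3 held 1 hypoxia response core and 2 GC boxes. Between COL4A1 and COL4A2, 126 bases held 0 cores and 1 GC box. The COL5A1 stretch held 1 core and 2 GC boxes, and its core directly follows the first GC box. Over 27305 RefSeq promoters of 300 bases, 48.4% held the core and 44.6% the GC box, against 14 and 18 of the 31 collagen genes with an entry. Such short matches are a description of letters, not binding sites. COL5A2 had no entry.

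All arrays had been scaled to the same trimmed mean signal, and the number of genes with a signal above 100 ran from 6448 to 6856 per array. The ratio of 3′ to 5′ signal of ACTB, a measure of RNA quality, ran from 1.2 to 1.85 and was highest on the epirubicin arrays numbered 4. CD44 followed the sort, with mean signals of 88.0 ± 33.2 (SD, n = 4) and 648.4 ± 476.3 in CD44lo and CD44hi cells after epirubicin, and 204.9 ± 194.3 and 1042 ± 481 after low oxygen, against 66.1 ± 13.2 in untreated cells (n = 3). All 7 luminal epithelial and SKBR3 markers passed the signal filter, and ERBB2 passed the test in none of the 4 comparisons with untreated cells. Of the 7, 1 was called higher in CD44hi cells after low oxygen (KRT7, log2 0.47) and 1 in CD44hi cells after epirubicin (KRT18, log2 0.51). Of all genes, 12.8% and 4.63% were called higher there, and 1 of 7 is near these shares. Both are named after their values were seen.

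Testing required a signal of 16.9, the median of the table, on 3 or more arrays. Of the 43 collagen genes, 22 were tested (51.2%, against 65.4% of all genes), and 21 were not, with a highest signal of 19.3 on any array. Of these 43 genes, 17 lay under the median on all 19 arrays. By class, 5 of 11 fibrillar, 5 of 6 type IV, 4 of 10 fibril-associated, 2 of 5 type VI, 1 of 3 short-chain, 1 of 3 transmembrane and both multiplexin genes were tested, with the anchoring fibril gene COL7A1 and COL28A1. The untested fibrillar genes were COL1A2, COL2A1, COL3A1, COL5A3, COL11A1 and COL24A1. The others were COL4A6 of type IV, COL9A1, COL14A1, COL19A1, COL20A1, COL21A1 and COL22A1 of the fibril-associated class, COL6A3, COL6A5 and COL6A6 of type VI, the short-chain genes COL8A1 and COL8A2, the transmembrane genes COL23A1 and COL25A1, and COL26A1. COL1A2, COL8A2 and COL14A1 missed the filter by 1 array, with highest signals of 19.3, 19.3 and 18.5. Inside the filter, COL10A1, COL11A2, COL13A1 and COL4A1 passed with 5 arrays or fewer. COL4A3 passed through 6 arrays and COL13A1 through 5, all of them low-oxygen arrays, and COL4A1 through 5, all of them CD44hi arrays. These 3 genes entered the test only through groups in which they are high, so that their being called is partly set by the filter. COL4A4 passed through 7 arrays, all low-oxygen except epirubicin CD44hi array 4 (21.3), so that the same largely holds for it. COL28A1 passed through 12 arrays, none of them untreated. A low signal here means close to the background of the array and not absence of the transcript.

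Differences were tested in limma on log2(signal + 4.2), over 12925 genes, and a gene was called at a Benjamini-Hochberg adjusted p under 0.05. Values after ± are standard errors for log2 differences. Against untreated cells, CD44hi cells after low oxygen had 7 collagen genes called higher and 1 lower of the 22 tested, where 12.8% of all genes were called higher and 14.1% lower. CD44lo cells after low oxygen had 4 higher and 2 lower, against 10.7% and 11.7% of all genes. In CD44hi cells after epirubicin, 2 were higher and 1 lower, against 4.63% and 1.79% (6.42% in either direction). In CD44lo cells after epirubicin limma called 0, against 2.26% of all genes higher and 2.82% in either direction, and 5 of the 22 had an unadjusted p under 0.05, against 18.2% of all genes. The median log2 difference of the 22 was 0.26, 0.28, 0.33 and 0.19 in these 4 comparisons, against 0.00, 0.02, 0.00 and 0.04 for all genes tested. Groups that do not overlap array by array were counted too. In CD44hi cells after low oxygen, 8 of the 22 genes lay above untreated cells on every array and 3 below, against 18.5% and 20.4% of all genes. The counts were 4 and 2 in CD44lo cells after low oxygen (15.2% and 16.4% of all genes), 4 and 3 for the epirubicin CD44hi fraction (13% and 12.6%), and finally 3 and 1 for the epirubicin CD44lo fraction (13.4% and 10.5%). Apart from the 8 higher genes in CD44hi cells after low oxygen, these counts were near the shares of all genes. So were the numbers of genes called in the CD44lo fraction of either treatment. Of the 8 genes, COL4A1, COL4A3, COL4A4, COL11A2, COL13A1 and COL28A1 reached the signal filter on no untreated array. That count, and the counts of genes called higher after low oxygen, are therefore partly set by the filter. In all, 11 collagen genes were called in at least 1 of 9 comparisons and 11 in none.

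**Figure D1:**
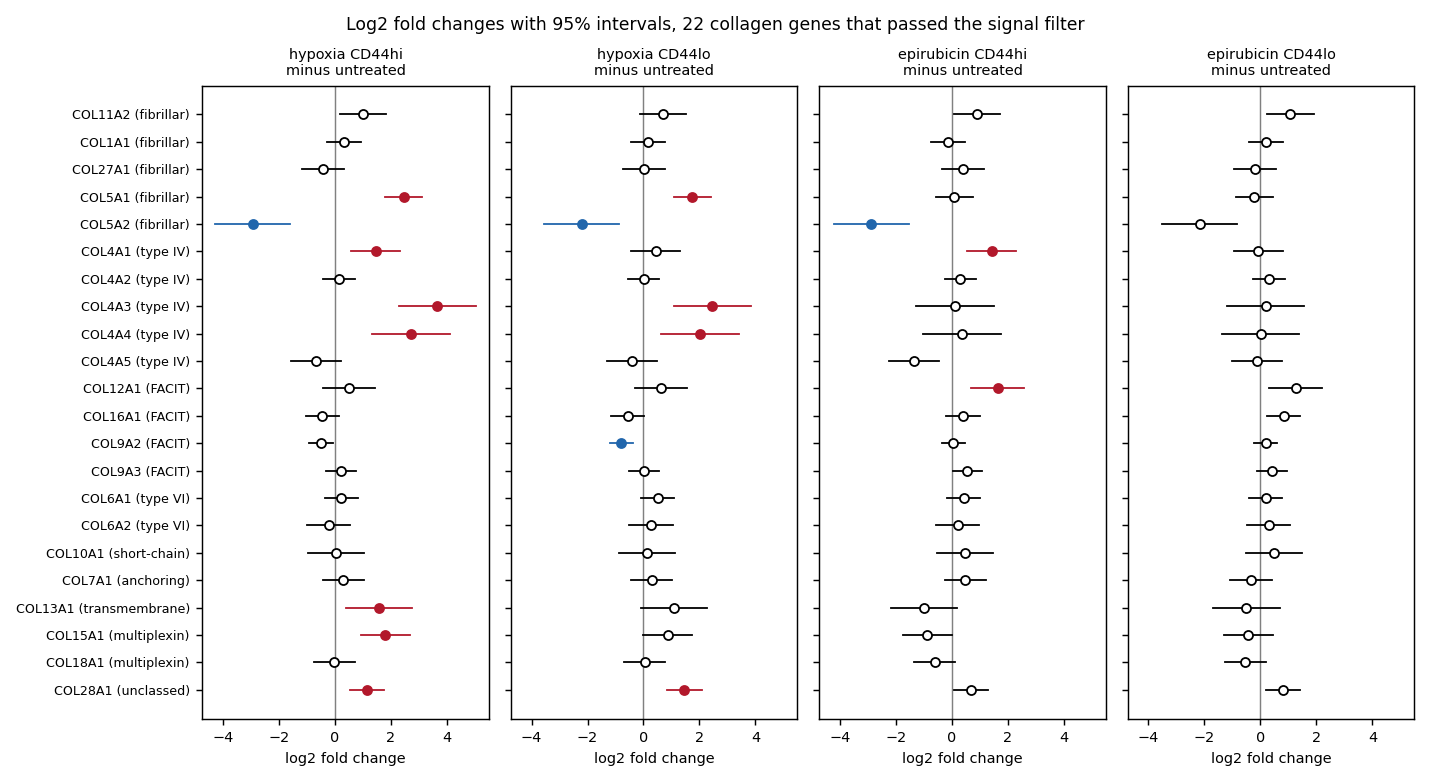
Log2 fold changes (points) with 95% confidence intervals (lines) of the 22 tested collagen genes in the 4 treated and sorted groups against untreated cells, on the log2(signal + 4.2) scale; red is called higher, blue called lower and open not called. COL5A2 lies left of 0 in all 4 panels, and COL5A1, COL4A3 and COL4A4 are red in both low-oxygen panels and open in both epirubicin panels.

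The type V chains moved in opposite directions under low oxygen. COL5A1 encodes the alpha1 chain, present in nearly all type V collagen. Its signal on the untreated arrays was 48, 66.1 and 69.3. After low oxygen it was 356.2, 141.4, 124.2 and 319.5 in CD44lo cells and 483.9, 351.3, 239.1 and 360.8 in CD44hi cells. Every low-oxygen array lay above every untreated and epirubicin array, the highest of which was 86. COL5A1 was 5.45-fold higher in CD44hi cells (log2 2.45 ± 0.32, adjusted p = 1.79e-05), and the log2 difference in CD44lo cells was 1.74 ± 0.32 (adjusted p = 0.000698). After epirubicin the signals were 67.3, 47.2, 58 and 37.8 in CD44lo and 86, 58.7, 56.8 and 59.4 in CD44hi cells, with log2 differences of -0.21 and 0.08 from untreated cells. All 3 COL5A1 probe sets were called higher in both low-oxygen fractions.

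COL5A2 (chr2:189031898-189441111) encodes the alpha2 chain, which pairs with alpha1 in the most common form of type V collagen. Untreated arrays read 118.7, 93.3 and 117.5. The signal was 16.4, 51.5, 20.8 and 10 in CD44lo and 1.5, 37.4, 27.9 and 3.3 in CD44hi cells after epirubicin. After low oxygen it was 12, 54.5, 19.9 and 11.6 in CD44lo and 11, 28.5, 8.8 and 3.3 in CD44hi cells. All 16 treated arrays lay below all 3 untreated arrays, and in each of the 4 treated groups the array numbered 2 was the highest. The fall was 7.64-fold in CD44hi cells after low oxygen (log2 -2.93 ± 0.64, adjusted p = 0.00205) and 7.34-fold in CD44hi cells after epirubicin (log2 -2.88 ± 0.64, adjusted p = 0.0102). In CD44lo cells the log2 difference was -2.21 ± 0.64 after low oxygen (adjusted p = 0.0179) and -2.17 ± 0.64 after epirubicin (adjusted p = 0.0752), the latter not called. With the replicate number as a block, this last difference was called (adjusted p = 0.0163). The second COL5A2 probe set was called lower in the same 3 comparisons, with log2 differences of -2.91, -2.83 and -2.85. Without the untreated array 1, the call in CD44hi cells after epirubicin was lost (adjusted p = 0.0585), and the call in CD44lo cells after low oxygen was lost without untreated array 1 (0.0651), untreated array 3 (0.056) or CD44lo array 4 (0.0552).

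**Figure D2:**
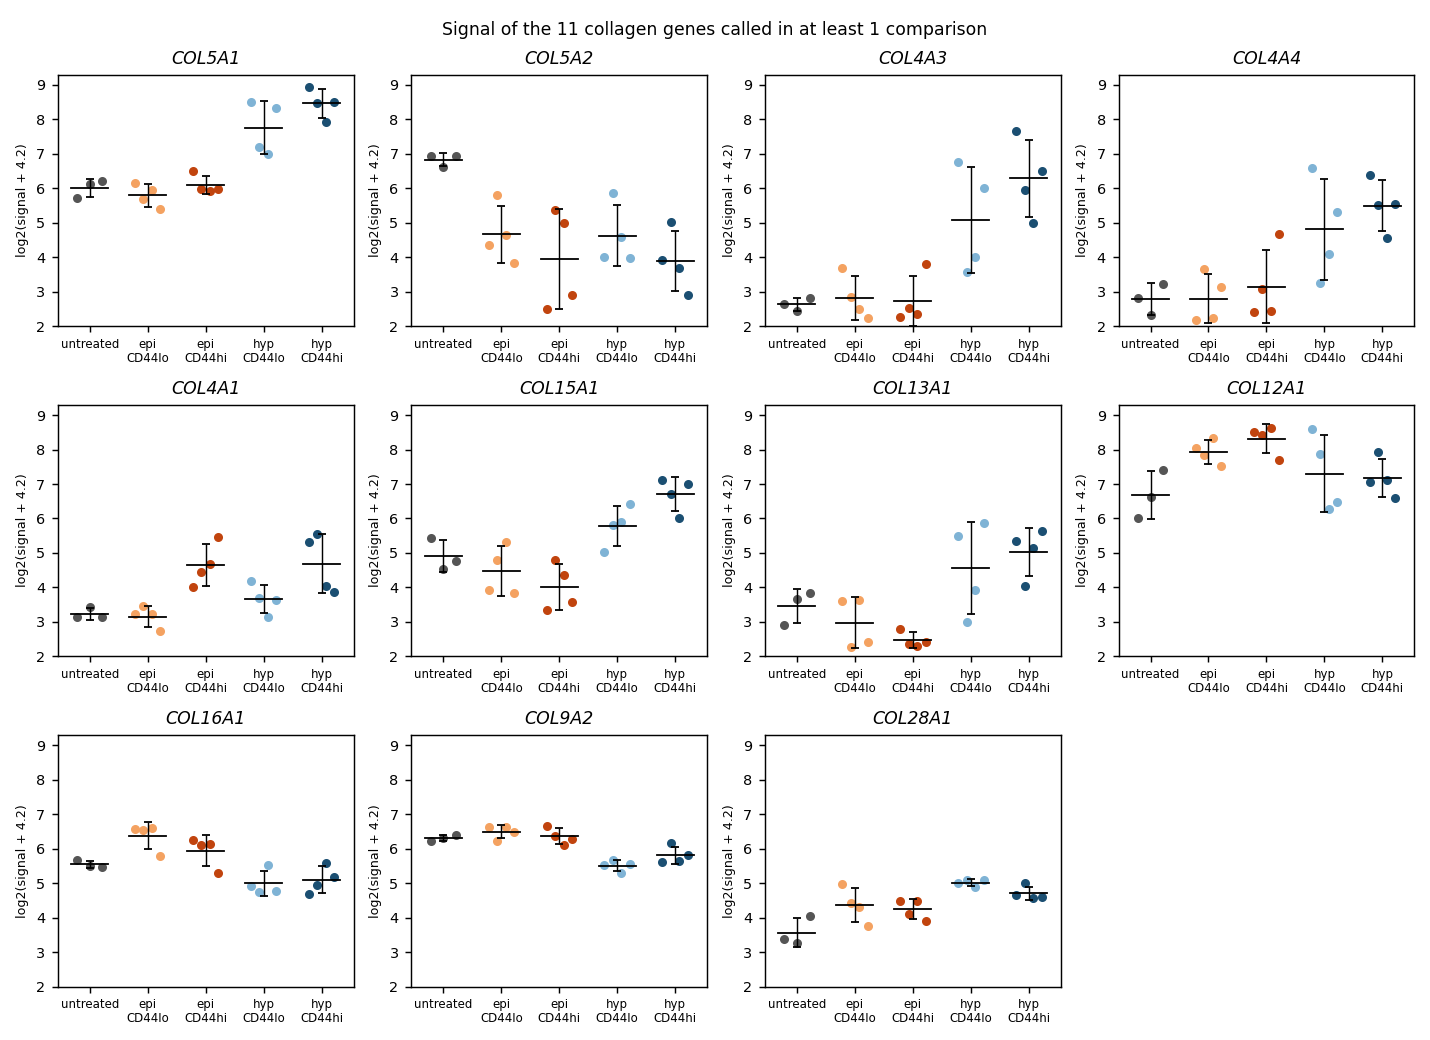
Signal of the 11 collagen genes called in at least 1 comparison, as log2(signal + 4.2), 1 point per array; bars are the group mean and SD on that scale (n = 3 untreated arrays and 4 in each other group; epi, epirubicin; hyp, 1% oxygen). COL5A2 is above 90 on the 3 untreated arrays alone, COL5A1 is above 100 on the 8 low-oxygen arrays alone, and COL12A1 has its highest group means after epirubicin.

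The remaining fibrillar genes passed no test. COL1A1, the main chain of type I collagen, had signals between 14.6 and 47 over all arrays, with means of 28.5 ± 5.4 (SD, n = 3) in untreated cells and 36.4 ± 8.5 (n = 4) in CD44hi cells after low oxygen (log2 0.30 ± 0.29, adjusted p = 0.483). Its partner chain COL1A2 and the type III gene COL3A1 stayed under the filter in every group. COL11A2 read 2.7, 6.8 and 3.2 on untreated arrays and 16.9, 7, 10 and 17.4 in CD44hi cells after low oxygen, without overlap, and was not called (log2 0.99 ± 0.40, adjusted p = 0.071). COL27A1, a fibrillar chain of cartilage, ranged from 9.3 to 13.7 in CD44hi cells after low oxygen and from 14.9 to 18.9 in untreated cells, also without a call (adjusted p = 0.421).

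Of the type IV chains, COL4A3 and COL4A4, which assemble with the alpha5 chain in the basement membranes of kidney and lung, rose together after low oxygen. COL4A3 read 2.1, 1.2 and 2.8 on untreated arrays. After low oxygen it read 103.8, 7.7, 12 and 60.1 in CD44lo and 199.6, 57.8, 27.8 and 87 in CD44hi cells. All low-oxygen arrays exceeded the untreated arrays, and CD44lo arrays 2 and 3 were the lowest of the 8. The difference was 12.6-fold in CD44hi cells (log2 3.65 ± 0.66, adjusted p = 0.000415) and log2 2.46 ± 0.66 in CD44lo cells (adjusted p = 0.0118). Folds of genes this close to the offset of 4.2 depend on it, and with an offset of 16 the log2 difference in CD44hi cells was 2.35.

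COL4A4 read 2.8, 0.8 and 5.2 on untreated arrays. It read 92.2, 5.3, 12.7 and 35.3 in CD44lo and 78.9, 41.2, 19.3 and 42.9 in CD44hi cells after low oxygen. Again CD44lo array 2 was the lowest, and barely above the highest untreated array. COL4A4 was 6.55-fold higher in CD44hi cells (log2 2.71 ± 0.66, adjusted p = 0.00469) and higher by log2 2.02 ± 0.66 in CD44lo cells (adjusted p = 0.033). The CD44lo call was lost on leaving out any of the 3 untreated arrays or CD44lo array 1 or 4, with adjusted p from 0.052 to 0.123. After epirubicin neither chain was called, with signals of 0.5 to 9.8 for COL4A3 and 0.3 to 21.3 for COL4A4. The highest of each came from CD44hi array 4. Of the 5 tested COL4A3 probe sets, 4 were called higher in CD44hi cells after low oxygen and the fifth had an adjusted p of 0.0529, while the second COL4A4 probe set was called in CD44hi (0.0255) and not in CD44lo cells (0.0628).

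Over the 8 low-oxygen arrays, the log2 signals of COL4A3 and COL4A4 correlated with r = 0.962 (exact permutation, two-sided p = 0.000223, adjusted over 4 chain pairs 0.000893) and rho = 0.952 (exact p = 0.00114, adjusted 0.00456). Without the 2 arrays farthest from the COL4A3 median, r was 0.894, and within each fraction of 4 arrays it was 0.978 and 0.979. Arrays of the same number in both fractions may come from 1 culture, which is not stated, so the 8 points may not be independent. The other pairs did not show this after adjustment. COL4A1 and COL4A2 had r = 0.721 (exact p = 0.0433, adjusted 0.0865; rho = 0.571, exact p = 0.151, adjusted 0.197), which fell to 0.196 without the 2 farthest arrays. For COL4A5 and COL4A6 r was 0.25 (exact p = 0.521; rho = 0.575, exact p = 0.143), and for COL5A1 and COL5A2 it was -0.567 (exact p = 0.145; rho = -0.524, exact p = 0.197).

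**Figure D3:**
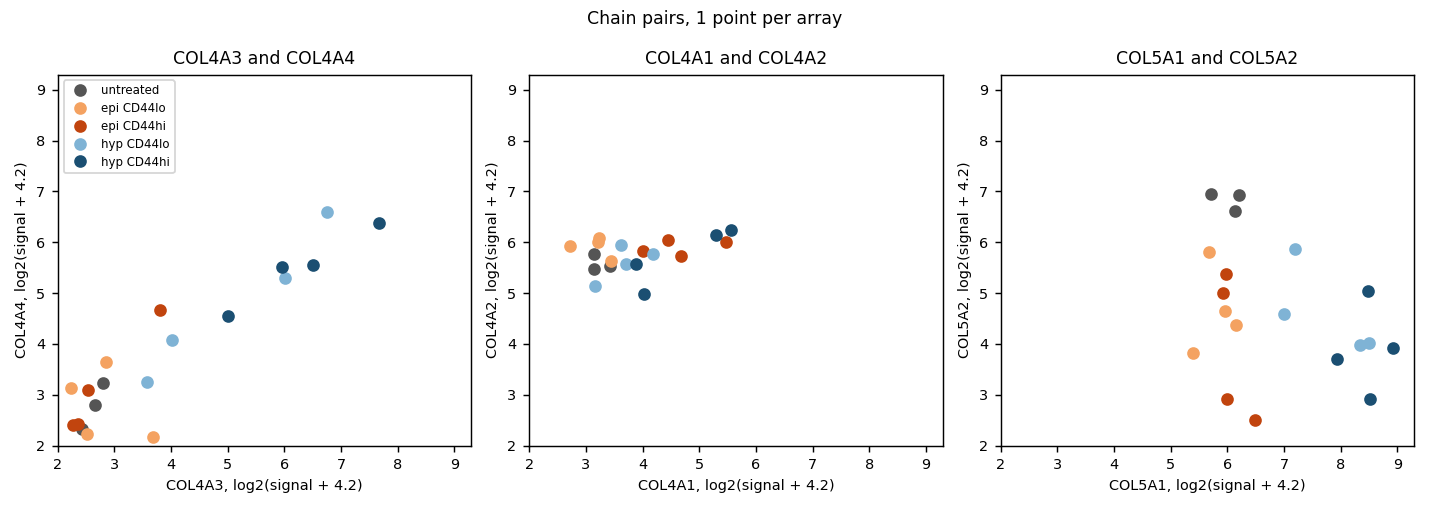
Signals of partner chains plotted against each other as log2(signal + 4.2), 1 point per array and coloured by group, for COL4A3 with COL4A4, COL4A1 with COL4A2 and COL5A1 with COL5A2. COL4A3 and COL4A4 rise along a diagonal on the low-oxygen arrays, COL4A2 stays between 27.2 and 71.9 while COL4A1 runs from 2.4 to 43, and low-oxygen arrays lie right of and below the untreated arrays for type V.

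COL4A1 and COL4A2 encode the chains of the ubiquitous type IV collagen, and COL4A1 was called higher in both CD44hi groups. Untreated arrays read 4.6, 6.5 and 4.6. CD44hi cells read 11.8, 17.6, 21.4 and 40.1 after epirubicin and 35.3, 43, 12.1 and 10.5 after low oxygen. CD44lo cells read 5.1, 6.7, 5.2 and 2.4, and 13.9, 8.8, 4.7 and 8.1. The epirubicin CD44lo values spanned the untreated range, and 3 of the 4 low-oxygen CD44lo arrays lay above it, overlapping CD44hi cells (log2 0.43 ± 0.42 from untreated cells, adjusted p = 0.496). The log2 difference from untreated cells was 1.46 ± 0.42 after low oxygen (adjusted p = 0.0141) and 1.42 ± 0.42 after epirubicin (adjusted p = 0.0487). The first call was lost without untreated array 1 (0.0517) or CD44hi array 1 (0.0506). The second was lost on leaving out any untreated array or CD44hi array 2, 3 or 4, with adjusted p from 0.0587 to 0.173, and also with an offset of 16, no filter, quantile normalization or the mean of both probe sets (0.0601 to 0.222). COL4A2 passed the filter on all arrays and was called in no comparison, with means of 44.4 ± 5.3 (SD, n = 3) in untreated cells, 55.6 ± 6.0 in CD44hi cells after epirubicin and 52.1 ± 20.8 after low oxygen (n = 4 each). Its second, dimmer probe set differed more, with a mean of 21.7 in untreated cells. There the CD44hi means were 42.9 after epirubicin and 51.55 after low oxygen, and the CD44lo means 32.75 and 23.9. COL4A2 is therefore not shown to be unchanged in CD44hi cells.

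COL4A5, the X-linked chain that joins alpha3 and alpha4, read 17.3, 20.2 and 17.4 on untreated arrays and 7, 5.4, 3.6 and 2.6 in CD44hi cells after epirubicin. These groups did not overlap, but the difference was not called (log2 -1.37 ± 0.43, adjusted p = 0.0586). In CD44hi cells after low oxygen it read 1.3, 22.4, 15.5 and 8.8, and its log2 difference was -0.69 ± 0.43 (adjusted p = 0.249). COL4A6, its head-to-head neighbour, had a highest signal of 12.7.

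Among the multiplexins, which carry sugar side chains and lie in basement membranes, COL15A1 rose and COL18A1 did not pass the test. COL15A1 read 38.8, 18.8 and 23.2 on untreated arrays and 133.4, 101.1, 60 and 124 in CD44hi cells after low oxygen, without overlap. It was 3.48-fold higher there (log2 1.80 ± 0.42, adjusted p = 0.00336). CD44lo cells after low oxygen read 28.3, 51.7, 55.3 and 80.9, overlapping untreated cells (log2 0.88 ± 0.42, adjusted p = 0.143). After epirubicin the signals were 11.1, 23.5, 36 and 10 in CD44lo and 6, 23.5, 16.3 and 7.8 in CD44hi cells, neither called. COL18A1, the precursor of endostatin, had means of 61.8 ± 18.6 (SD, n = 3) untreated and 60.3 ± 14.1 (n = 4) in CD44hi cells after low oxygen.

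COL13A1, a transmembrane collagen of cell adhesion sites, read 3.3, 8.5 and 10.1 on untreated arrays and 36.1, 12.2, 31.3 and 45.4 in CD44hi cells after low oxygen (log2 1.57 ± 0.57, adjusted p = 0.0457). In CD44lo cells after low oxygen it read 40.9, 3.8, 11 and 53.9, and was not called (adjusted p = 0.174). The CD44hi call was lost without any 1 of the untreated arrays or of CD44hi arrays 1, 3 and 4 (adjusted p from 0.0664 to 0.182), and with no filter, quantile normalization or the mean of all probe sets (0.0554 to 0.111). Its brightest other probe set gave log2 0.27 (adjusted p = 0.697), with means of 24.5 in untreated cells and 33.45 in CD44hi cells after low oxygen. The remaining probe set had means of 15.6 and 33.55. Both are probe sets of shared probes. The probe sets of this gene thus went the same way by unlike amounts.

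The fibril-associated chains had a different order, with COL12A1 called higher after epirubicin. COL12A1, which links fibrils to surrounding matrix, read 60.6, 93.4 and 166.5 on untreated arrays. It read 261.1, 225.5, 318.1 and 178.2 in CD44lo and 359.8, 338.1, 390.7 and 202.4 in CD44hi cells after epirubicin. All 8 epirubicin arrays lay above the untreated arrays. The difference was 3.10-fold in CD44hi cells (log2 1.63 ± 0.45, adjusted p = 0.0333) and log2 1.25 ± 0.45 in CD44lo cells (adjusted p = 0.143, not called; 0.0448 with the replicate block). After low oxygen the arrays read 382.1, 231, 72.5 and 84.1, and 128.3, 240.5, 134.9 and 93.2, overlapping untreated cells. The call was lost without untreated array 1 (0.199) or 2 (0.12) or CD44hi array 1 (0.065), 2 (0.0559) or 3 (0.0853). Of the 4 tested COL12A1 probe sets, 3 were called higher in CD44hi cells after epirubicin.

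COL16A1, a fibril-associated chain that also contacts integrins, read 46.7, 41.3 and 40.4 on untreated arrays. After epirubicin it read 91.3, 88.2, 93.7 and 51.1 in CD44lo and 71.6, 64.1, 66.6 and 34.9 in CD44hi cells. The array numbered 4 was the lowest in both fractions. After low oxygen it read 26.3, 22.8, 41.5 and 22.9, and 21.6, 26.6, 43.9 and 32.1. Neither treatment was called against untreated cells, the largest log2 difference being 0.83 ± 0.29 in CD44lo cells after epirubicin (adjusted p = 0.132). That difference was called with the replicate number as a block (adjusted p = 0.04).

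COL9A2, a chain of the type IX collagen of cartilage, read 70.4, 75 and 79.6 on untreated arrays and 42, 46.4, 34.9 and 42.8 in CD44lo cells after low oxygen, without overlap (log2 -0.80 ± 0.20, adjusted p = 0.00718). CD44hi cells after low oxygen read 44.7, 67.6, 45.3 and 52, also below the untreated arrays, but were not called (log2 -0.50 ± 0.20, adjusted p = 0.0674). Its other probe set gave log2 0.27 in CD44lo cells, opposite in sign and not called, and with the mean of both probe sets the call was lost (log2 -0.26, adjusted p = 0.542). COL9A3, its partner chain, had means of 44.1 ± 14.9 (SD, n = 3) untreated and 43.8 ± 6.8 (n = 4) in CD44lo cells after low oxygen.

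COL28A1, a chain described in peripheral nerve, read 6.2, 5.4 and 12.2 on untreated arrays. It read 28, 29.7, 25.3 and 29.6 in CD44lo and 20.9, 27.6, 19.4 and 20.1 in CD44hi cells after low oxygen, all above the untreated arrays. Log2 differences were 1.45 ± 0.30 (adjusted p = 0.00167) and 1.14 ± 0.30 (adjusted p = 0.00721). After epirubicin it read 27, 17.4, 15.8 and 9.3, and 18.1, 13, 18.1 and 10.8, and was not called (adjusted p of 0.152 and 0.171). The type VI chains COL6A1 and COL6A2, the short-chain gene COL10A1 and the anchoring fibril gene COL7A1 were called in no comparison, and COL6A3, the third chain of the common type VI collagen, was under the filter. Group means lay between 24.2 and 38.2 for COL6A1, 13.0 and 20.6 for COL6A2, 9.37 and 13.8 for COL10A1, and 23.6 and 39.4 for COL7A1.

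CD44hi and CD44lo cells were then compared directly within each treatment. After low oxygen limma called 0 collagen genes and 0 of all genes (0%), and 3 collagen genes had an unadjusted p under 0.05, against 6.88% of all genes. These were COL4A1 (log2 1.03 ± 0.39), COL15A1 (0.92 ± 0.39) and COL5A1 (0.71 ± 0.30), all higher in CD44hi cells with overlapping arrays. After epirubicin limma called 0 collagen genes, against 0.0232% of all genes, and 3 had an unadjusted p under 0.05, against 2.41%. COL4A1 (log2 1.49 ± 0.39) and COL7A1 (0.81 ± 0.33) were higher in CD44hi cells and COL4A5 (-1.26 ± 0.40) lower, all without overlap between the 4 arrays of each fraction. COL7A1 read 5.4, 26.6, 32.4 and 30.1 in CD44lo and 38.1, 42.7, 44.1 and 32.7 in CD44hi cells. Its CD44lo array of 5.4 stood apart from the rest, and the fractions nearly met at 32.4 and 32.7. COL4A1 reached the signal filter on CD44hi arrays alone. Arrays without overlap made up 0.766% of all genes in the higher and 0.975% in the lower direction. Same-numbered epirubicin arrays deviated together, as did the low-oxygen arrays numbered 2 to 4, which were not refitted alone. With that number as a block in the epirubicin arrays alone, limma called 0 of the collagen genes tested there. The signal filter was applied to these arrays alone, so fewer collagen genes were tested, and COL4A5 was not among them. COL4A1 then had an adjusted p of 0.224 and CD44 itself of 0.0042. In the fit over all arrays CD44, the sorted marker, was itself not called between the fractions (log2 2.90 ± 0.65, adjusted p = 0.386 after low oxygen; log2 2.57 ± 0.65, adjusted p = 1 after epirubicin), nor with the replicate number as a block there (0.137 and 0.477). The absence of collagen calls between fractions therefore does not show that the fractions are alike. The CD44 effects of the treatments differed for 0 collagen genes and 0 of all genes (0%), with 2 collagen genes at an unadjusted p under 0.05, COL15A1 (log2 1.37) and COL27A1 (-1.03), against 2.05% of all genes.

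Low-oxygen and epirubicin cells of the same fraction were compared as the treatments were given, which differ in kind and in duration. In CD44hi cells, 5 collagen genes were higher after low oxygen and 2 lower, against 8% and 10.2% of all genes. In CD44lo cells the counts were also 5 and 2, against 7.08% and 9.84%. The 5 higher genes were COL5A1, COL4A3, COL4A4, COL13A1 and COL15A1 in each fraction, and the 2 lower were COL16A1 and COL9A2. Without overlap of the arrays, 5 genes were higher and 1 lower in CD44hi cells (8.24% and 9.73% of all genes), and 1 higher and 2 lower in CD44lo cells (7.33% and 10.2%). COL5A1 differed by log2 2.36 ± 0.30 in CD44hi cells (adjusted p = 1.65e-05) and 1.96 ± 0.30 in CD44lo cells (0.000106), without overlap in either. COL15A1 differed by 2.69 ± 0.39 in CD44hi cells (7.48e-05), without overlap, and by 1.31 ± 0.39 in CD44lo cells (0.0234), with overlap. COL16A1 was lower by -1.39 ± 0.27 in CD44lo cells (0.000973), without overlap, and by -0.84 ± 0.27 in CD44hi cells (0.0312), with overlap. COL12A1 was not called in either fraction, and was lower after low oxygen in CD44hi cells when the replicate number was a block (log2 -1.13, adjusted p = 0.0302). Several of these calls rested on single arrays. In CD44lo cells, 4 genes were called without low-oxygen array 1 and 3 without array 4, and these 2 arrays each carried the calls of COL4A3 (0.058 and 0.0521 without them), COL4A4 (0.111 and 0.075) and COL13A1 (0.127 and 0.158). COL4A4 was also lost without epirubicin array 1 or 3 (0.0829 and 0.0819), COL13A1 without epirubicin array 2 or 4 (0.118 and 0.104), and COL15A1 without epirubicin array 1 or 4 or low-oxygen array 3 or 4 (0.0562 to 0.0833). In CD44hi cells the COL16A1 call was lost without epirubicin array 1, 2 or 3 or low-oxygen array 1, 2 or 4 (0.0519 to 0.107), and the COL9A2 call without epirubicin array 1 or 2 or low-oxygen array 1, 3 or 4 (0.0709 to 0.135).

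Genes that make, export and bind collagen were read from lists of partners. In the folding and modification list, 16 of 17 genes were tested. After low oxygen 4 rose in each fraction (12.8% of all genes in CD44hi and 10.7% in CD44lo cells), the prolyl 4-hydroxylase subunits P4HA1 and P4HA2, which stabilise the helix, and the lysyl hydroxylases PLOD1 and PLOD2, which prepare cross-links. In CD44hi cells PLOD2 rose by log2 1.91 ± 0.30 (adjusted p = 0.000131), from a mean of 401.7 ± 13.6 (SD, n = 3) to 1575 ± 438 (n = 4). P4HA1 rose by 1.22 ± 0.20 (0.000149), P4HA2 by 1.32 ± 0.26 (0.000725) and PLOD1 by 1.40 ± 0.26 (0.000429). In the same list 1 gene fell in CD44hi cells, CRTAP (log2 -0.68), a part of the prolyl 3-hydroxylase complex, and 2 fell in CD44lo cells, CRTAP and the collagen galactosyltransferase COLGALT1 (14.1% and 11.7% of all genes). CRTAP and COLGALT1 are named after their values were seen. After epirubicin limma called 0 of the 16 in either fraction, which is near the shares of all genes (6.42% in CD44hi and 2.82% in CD44lo cells).

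In the list for export, propeptide removal and cross-linking, 8 of 16 genes were tested. LOXL2, a lysyl oxidase that cross-links collagen and acts on type IV, read 18.4, 22.7 and 29.3 on untreated arrays. After low oxygen it read 943.5, 451.1, 595.4 and 737.6 in CD44lo and 810.1, 616.1, 660.7 and 732.9 in CD44hi cells. It was 25.8-fold higher in CD44hi (log2 4.69 ± 0.26, adjusted p = 6.89e-10) and 24.2-fold in CD44lo cells (1.01e-09). In CD44hi cells after epirubicin it read 38.4, 60.8, 72.1 and 93.2 (log2 1.30 ± 0.26, adjusted p = 0.00541). It was the 1 gene of the 8 called there, against 4.63% of all genes called higher. BMP1, the protease that removes procollagen C-propeptides, rose in both low-oxygen fractions (log2 1.76 and 1.42), and LOX in CD44hi cells (1.13 ± 0.40, adjusted p = 0.0433). LOX reached the filter on low-oxygen arrays alone (26.2 and 17.9 in CD44lo, 17.2 and 29.6 in CD44hi cells). Its call is therefore partly set by the filter. BMP1 reached the filter in all 4 treated groups but on no untreated array (3.1, 14.4 and 7.7). After low oxygen, 3 of the 8 rose in CD44hi and 2 in CD44lo cells, against 12.8% and 10.7% of all genes. None fell, which among 8 genes is near the shares of 14.1% and 11.7%.

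Of 9 collagen receptors with a probe set, 5 were tested. The integrin subunits ITGA1, ITGA2 and ITGB1, which form the alpha1beta1 and alpha2beta1 collagen receptors, rose in both low-oxygen fractions, 3 of 5 against 12.8% and 10.7% of all genes. ITGA2 rose by log2 2.96 ± 0.41 (adjusted p = 3.58e-05) in CD44hi and 2.27 ± 0.41 (0.000615) in CD44lo cells, and ITGA1 by 2.47 and 1.97. ITGA1 reached the filter on no untreated array (4.3, 6.5 and 4), and only on low-oxygen and epirubicin CD44hi arrays. Its call, and with it the 3 of 5, is therefore partly set by the filter. None of the 5 was called after epirubicin, where 6.42% and 2.82% of all genes were, so that 0 of 5 is near the background. Of 14 basement membrane partners of type IV collagen, 10 were tested, and 4 laminin chains rose in both low-oxygen fractions, again against 12.8% and 10.7% of all genes. LAMB3 rose by log2 4.13 and 3.36 and LAMC1 by 3.50 and 2.18, with smaller rises of LAMA5 and LAMB2. LAMC1 (2.73 ± 0.60, adjusted p = 0.0092) and LAMB3 (1.96 ± 0.36, 0.00235) also rose in CD44hi cells after epirubicin, 2 of 10 against 4.63% of all genes. The peroxidase PXDN, which cross-links type IV collagen, fell in CD44lo cells after epirubicin (log2 -0.84 ± 0.20, adjusted p = 0.026). Of 11 fibril partners, 6 were tested. Fibronectin (FN1) rose by log2 3.94 and 3.63 after low oxygen and by 2.33 in CD44hi cells after epirubicin, and thrombospondin 1 (THBS1) by 3.03 and 1.44 after low oxygen, 2 of 6 in each low-oxygen fraction against 12.8% and 10.7% of all genes.

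**Figure D4:**
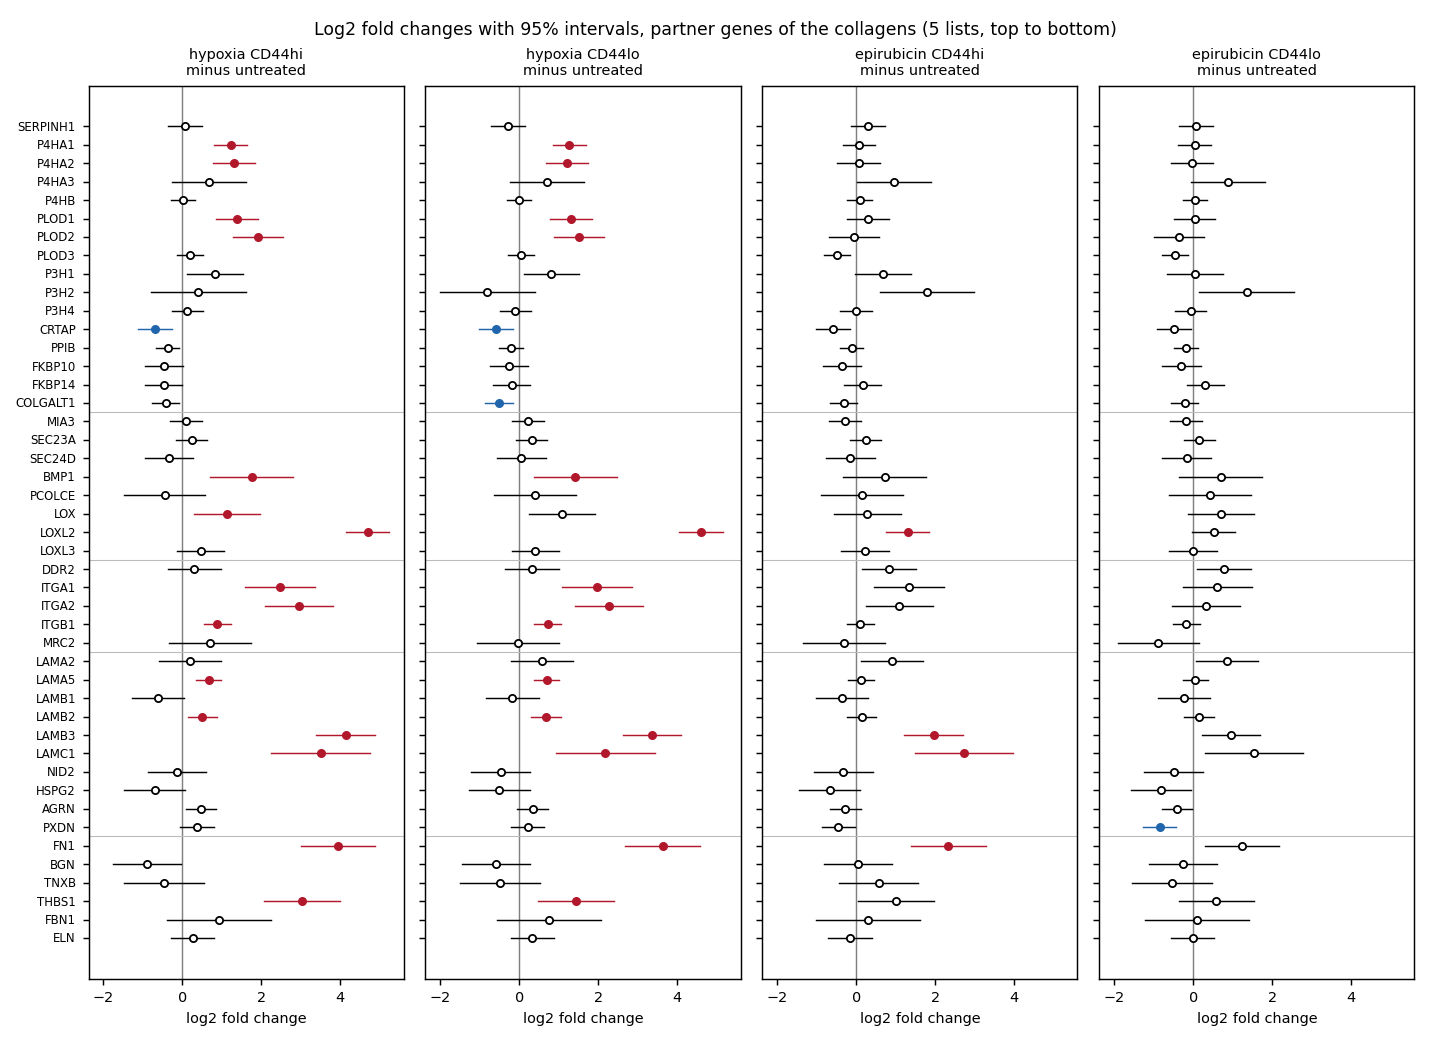
Log2 fold changes (points) with 95% confidence intervals (lines) of the tested partner genes of the collagens against untreated cells, on the log2(signal + 4.2) scale, grouped from top to bottom as folding and modification, export and cross-linking, receptors, type IV partners and fibril partners; red is called higher, blue lower and open not called. The red points stand mostly in the low-oxygen panels, and LOXL2, LAMB3 and FN1 lie beyond 3 in both.

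Markers of other cell types were read beside these results. Of 8 fibroblast markers 0 passed the signal filter, and none was listed at 0 on all arrays. Their summed signal was 15.6 to 33.8 in untreated cells, 37.4 to 58.4 and 52 to 71.8 in CD44lo and CD44hi cells after epirubicin, and 20.1 to 44 and 37.8 to 58.7 after low oxygen, with no single value above 22.4. Of 4 immune markers with a probe set 0 passed the filter, with sums of 3.2 to 34.6. Of 5 endothelial markers 3 were tested, and their sums were 54.1 to 58.2 in untreated cells and 99.4 to 366 in the treated groups. CDH5 was called higher in all 4 treated groups. The shares of all genes were 12.8% and 10.7% in CD44hi and CD44lo cells after low oxygen, and 4.63% and 2.26% after epirubicin. PECAM1, the third tested, was called in none of these 4 comparisons. KDR was called higher in CD44lo cells after low oxygen. It reached the filter on arrays of that group alone (163.1, 27.4 and 17.4), so its call is partly set by the filter. Array 1 of that group read 163.1, and both COL4A3 and COL4A4 had their highest CD44lo signal on it. The part of the endothelial markers in the type IV and COL15A1 differences was not tested.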

How the data were processed

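Signals of 19 arrays were used. The authors deposited linear signal intensity per probe set, and the submitters' processing notes name MAS5; the version is not given in the sources used here. The arrays carry 54675 probe sets, of which 41091 name exactly 1 gene. Per the labels' protocols, 200 ng of total RNA per sample was labelled. Each gene was read through its probe set with the highest mean, with probe sets of shared probes used only where no other existed. Signals were set to log2(signal + 4.2), with an offset equal to the lower quartile of all deposited signals. Genes reaching 16.9 on at least 3 arrays were fitted with 5 group means over all arrays in limma 3.58.1 (R 4.3.3), with a variance trend and two-sided tests adjusted by Benjamini-Hochberg over 12925 genes; the fit was tested on simulated data. Fold changes on this scale understate changes of dim genes.

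Every tested collagen gene is named, those called are given array by array, and of each partner list up to 4 called members of largest change are named in a comparison, with exceptions marked where they appear. The members, lists and tests were chosen with earlier results of these data known. The labels call the samples biological replicates without naming separate cultures, so p-values cover the spread between samples only, which may be technical. The number of arrays limits the precision. Deviations from the group means correlated at 0.114 to 0.546 between same-numbered arrays of the epirubicin fractions, which were refitted alone with a block. Between the low-oxygen fractions the correlations were -0.041, 0.633, 0.279 and 0.543 for the numbers 1 to 4, and these arrays were not refitted alone. In the other comparisons they ran from -0.279 to 0.367. Alternatives were the offset, the filter, quantile normalization, all probe sets, the replicate block and leaving out arrays; the brightest other probe set and the epirubicin arrays alone were added after seeing the data.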

Additional observations from a re-analysis of the deposited data

Results flagged for a closer look

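Within groups of 4 arrays, 4 of 88 gene and group sets had a highest or lowest array that stood apart by Dixon's criterion at the 95% level, which chance gives in about 1 in 20. COL16A1 was low on the epirubicin arrays numbered 4, at 51.1 in CD44lo and 34.9 in CD44hi cells. COL5A1 was high at 86 on CD44hi array 1 after epirubicin. COL7A1 was low at 5.4 on CD44lo array 1 after epirubicin.

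The effects of low oxygen and epirubicin differed, by the test of the difference in limma, for 7 collagen genes in each fraction. In CD44hi cells the differences, low oxygen minus epirubicin in log2, were 3.54 for COL4A3, 2.69 for COL15A1, 2.57 for COL13A1, 2.36 for COL5A1, 2.35 for COL4A4, -0.55 for COL9A2 and -0.84 for COL16A1, with adjusted p from 1.65e-05 to 0.0406. In CD44lo cells they were 2.27 for COL4A3, 2.01 for COL4A4, 1.96 for COL5A1, 1.60 for COL13A1, 1.31 for COL15A1, -0.99 for COL9A2 and -1.39 for COL16A1, with adjusted p from 0.000106 to 0.0401.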

How the results depend on the processing

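The count of collagen genes called in CD44lo cells after epirubicin, 0 as reported, was 1 with an offset of 16, on averaging a gene's probe sets, on dropping the epirubicin arrays numbered 4 and without the low-oxygen arrays numbered 2. It was 3 with the replicate block (COL5A2, COL12A1 and COL16A1). Calls over all genes there were 365 as reported and 600 with the block. In the alternatives before it they were, in order, 371, 348, 210 and 550. The block raised low oxygen minus epirubicin in CD44hi cells from 7 to 8 and changed no other count. Leaving out 1 array at a time gave 6 to 10 calls in CD44hi and 4 to 7 in CD44lo cells after low oxygen, 0 to 2 in CD44hi and 0 to 1 in CD44lo cells after epirubicin, 5 to 8 and 3 to 7 for low oxygen minus epirubicin in CD44hi and CD44lo cells, and 0 in the CD44 comparisons. In CD44hi cells after epirubicin the count was 0 without untreated array 1, and 1 without untreated array 2 or CD44hi array 2 or 3. In CD44lo cells after epirubicin it was 1 without CD44lo array 2. Calls over all genes moved as well. Without untreated array 1 they fell from 830 to 218 in CD44hi and from 365 to 74 in CD44lo cells after epirubicin. After low oxygen they fell from 3475 to 2320 in CD44hi and from 2903 to 1625 in CD44lo cells. COL9A2 changed sign with its other, dimmer probe set, at 0.27 in CD44lo cells after low oxygen and 0.14 for low oxygen minus epirubicin in CD44hi cells; the cause was not tested. The COL5A1 calls, and the COL4A3 and COL5A2 calls in CD44hi cells after low oxygen, held in every alternative run. Both COL28A1 calls held in the 13 alternatives in which that gene was tested. Its second probe set, with group means from 1.3 to 6.5, was under the filter. Untreated signals of COL4A3, COL4A4 and COL4A1 lay near the offset, which limits their folds.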
